A study of Mus musculus with 9 samples.

Results

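The calcineurin and NFAT genes described here are 10 rows of a gene expression table from mouse mast cells: the transcription factor genes Nfatc1, Nfatc2, Nfatc3 and Nfat5, the calcineurin subunit genes Ppp3ca, Ppp3cb, Ppp3cc and Ppp3r1, and the calcineurin inhibitor genes Rcan1 and Rcan3. They were taken by symbol out of 23951 gene symbols, and all 10 were among the 10890 genes that reached 1 FPKM in at least 3 of the 9 libraries and were therefore tested. Levels are in FPKM, which counts sequenced fragments relative to the length of the transcript and to the mapped reads of the library. The cells were bone marrow-derived mast cells, which are mast cells grown in culture from marrow progenitors, of wild-type C57BL/6 mice. All cells in all groups had been cultured for 4 to 6 weeks with IL-3 at 10 ng/ml and stem cell factor, SCF, at the same dose, and over 95% of them carried both FcER1 and CD117, per the labels. The untreated group had no IgE, the IgE group had been given 0.5 µg/ml DNP-IgE for 18 h, and the antigen group was IgE-loaded in the same way and then exposed to DNP-BSA at 50 ng/ml for 2 h. Each group had 3 libraries, and the antigen libraries thus differ from the untreated ones by both agents. Nothing in the labels says whether the libraries of a group came from different mice or cultures, so the p-values measure the spread between these libraries, which may be technical.

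Calcineurin is a calcium-dependent phosphatase made of a catalytic subunit, which is switched on when calcium rises, and a regulatory subunit that also binds calcium. In mast cells, cross-linking of receptor-bound IgE by antigen releases calcium from stores and opens calcium channels of the plasma membrane, and active calcineurin then strips phosphates from the NFATc factors, which enter the nucleus and bind GGAAA cores together with AP-1 and other partners. Nuclear kinases rephosphorylate NFAT and send it back to the cytoplasm, and Rcan proteins bind calcineurin and restrain it. Nfat5 is the family member without a calcineurin docking region and is best known for its response to high salt. Because NFAT activity is set by phosphorylation and location, a transcript level is not a measure of it.

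Of the 10 genes, 5 were higher and 1 was lower in the antigen than in the IgE libraries, where 71.1% of all tested genes passed the same test in either direction, 36.2% higher and 34.9% lower (limma, adjusted p under 0.05). The median difference of the 10 genes was 0.16 on the log2(FPKM + 1) scale, against -0.01 over all tested genes. Without overlap between the groups, 5 of the 10 genes lay above and 1 below the IgE libraries, and 74.2% of the tested genes were apart in this way, 37.1% above and 37.0% below. Nfatc1 and Nfat5 passed the test and were more than 2-fold higher, which 8.93% of the tested genes were. IgE without antigen gave 0 calls among the 10 genes in limma, where 27.5% of the tested genes passed, 14.5% higher and 13.1% lower, and 2 genes, Nfat5 and Ppp3ca, had an unadjusted p under 0.05, both lower. Without IgE replicate 3, 3 of the 10 genes passed the adjusted test, all lower, while the lower calls over all 10890 tested genes went from 1424 to 1945.

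**Figure D1:**
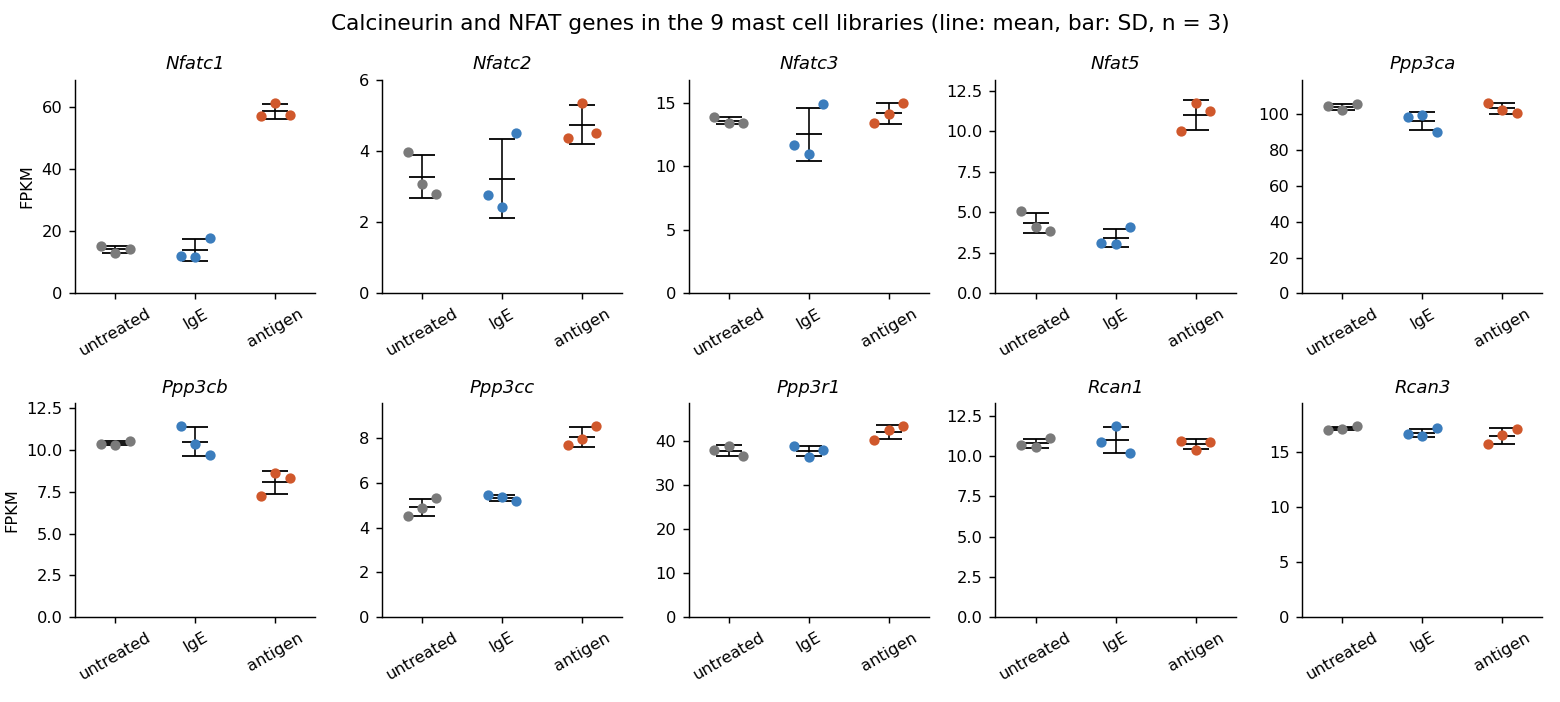
Level of each of the 10 genes in FPKM on the vertical axis, with 1 point per library, grouped as untreated, IgE and antigen; the line marks the mean and the bar the SD of 3 libraries. Nfatc1 reached 57.2 to 61.6 FPKM in the antigen libraries against at most 18.0 in the other 6, and Nfat5 reached 9.98 to 11.8 against at most 5.07.

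The estimated depth, in M (mega) reads, was between 29.9 and 33.4 for untreated, between 32.5 and 39.2 for IgE and between 20.6 and 28.7 for antigen libraries. At the lowest depth, the counting error of a 2 kb transcript comes to 15.6% of its value at 1 FPKM and to 4.93% at 10 FPKM. Of 13 mast cell marker genes, 11 had a mean of at least 1 FPKM in every group, with Fcer1a at 4660 to 6093 FPKM and Kit at 395 to 497 FPKM, while the mast cell proteases Cpa3 and Cma1 were listed at 0 in all 9 libraries. Markers of T cells summed to at most 0.613 FPKM, with Cd3e and Cd3g listed at 0 in every library, and those of B cells and neutrophils at most 2.54 and 2.38 FPKM. A listed 0 does not tell absent expression from a gene that was not quantified, for Cpa3 and Cma1 as for Cd3e and Cd3g. Basophil markers, shared in part with mast cells, summed to 423 to 574 FPKM and megakaryocyte and erythroid markers to 384 to 455 FPKM. Most of the megakaryocyte and erythroid sum was Itga2b, at 356 to 434 FPKM. Hbb-bt and Gp9 reached at most 26.4 and 6.14 FPKM in any library. Klf1, Alas2 and Pf4 stayed at or under 0.736, 0.147 and 0.121 FPKM, and Ppbp was listed at 0 in all 9 libraries. The 7 macrophage and osteoclast markers in the table summed to 22.3 to 23.5 FPKM in untreated, 26.7 to 27.1 in IgE and 38.8 to 39.6 in antigen libraries, and their part in the results below was not tested. Cd68 made that sum rise, with means of 8.62, 16.1 and 30.2 FPKM in the 3 groups, while Emr1 had means of 12.2, 9.36 and 7.75 FPKM and Csf1r of 1.05, 0.716 and 0.612 FPKM. All 312 tested genes on the X chromosome were listed at 0 in antigen replicate 3, against at most 1 of them in any other library, and none of the 10 genes lies on the X chromosome. In these bulk samples, more cells of a type and more RNA per cell cannot be told apart.

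Nfatc1, an NFAT factor that raises its own transcription in lymphocytes and is needed for osteoclast formation, changed most of the 10 genes. It was at 15.4, 12.9 and 14.3 FPKM in the untreated libraries, at 11.9, 11.7 and 18.0 in the IgE libraries and at 57.2, 61.6 and 57.6 in the antigen libraries. The antigen values lay far above the other 6, which overlapped each other. The ratio of means of antigen to IgE was 4.24, and the difference was 2.03 (SE 0.144, adjusted p = 3.65e-06, limma). From untreated to IgE the difference was -0.06 with a 95% interval of -0.39 to 0.28 (adjusted p = 0.823). The step from IgE to antigen exceeded the step from untreated to IgE by 2.09 on the log2 scale (adjusted p = 0.000178), although both steps use the same IgE libraries. Acp5 and Ctsk, which mark osteoclasts, stayed at or under 0.357 and 0.843 FPKM in all 9 libraries, while the lysosomal macrophage marker Cd68 was higher with antigen and the macrophage marker Emr1 lower, as given above. Nfatc1 has alternative promoters, and a gene-level FPKM does not separate their transcripts.

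Nfat5, the tonicity-responsive factor, was the other gene with a ratio of means above 2. Its untreated levels were 5.07, 4.12 and 3.84 FPKM, its IgE levels 3.11, 3.07 and 4.06 and its antigen levels 9.98, 11.8 and 11.2. All 3 antigen values lay above all others, and the untreated and IgE values overlapped. Antigen was 3.22-fold above IgE, a difference of 1.45 on the log2 scale (SE 0.114, adjusted p = 6.70e-06, limma). The difference from untreated to IgE was -0.28 with a 95% interval of -0.54 to -0.01, and it did not pass limma's test (adjusted p = 0.108). The antigen step exceeded the IgE step by 1.72 (adjusted p = 0.000137). Nfat5 also has the longest coding transcript of the 10 genes, 13380 bases in GENCODE M21, and genes with a longest coding transcript above 7000 bases had a median antigen-to-IgE difference of 0.16 against -0.04 for those up to 2000 bases. With the trend over length removed, an alternative added after seeing the data, the Nfat5 difference was 1.21 (adjusted p = 1.59e-06, with 1.59e-06 to 0.00012 over all alternatives).

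The window before the Nfat5 start is shown because Nfat5 is the gene with a ratio above 2 for which a promoter window was searched. It holds 250 bases on the plus strand of GRCm38.p6 at chr8:107293220-107293469, from RefSeq, ends just before the annotated start, and has the NFAT core GGAAA or its reverse complement TTTCC in capitals.
Nfat5: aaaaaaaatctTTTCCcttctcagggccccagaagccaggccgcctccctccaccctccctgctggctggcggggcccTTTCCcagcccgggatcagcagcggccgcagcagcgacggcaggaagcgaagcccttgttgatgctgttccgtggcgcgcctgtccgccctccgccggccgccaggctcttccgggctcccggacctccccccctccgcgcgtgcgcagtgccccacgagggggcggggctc
There were 2 matches, both TTTCC, 239 and 172 bases before the start. At least 1 match on either strand was present in 55.6% of 32851 windows of this length before mouse gene starts and at least 2 in 21.4%, so the letters are common, and a match is not evidence of a bound site. Of the 10 genes, 7 were matched to promoters by symbol; Nfatc1, Ppp3ca and Ppp3cc were not.

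Nfatc2, a factor of resting T cells and of mast cells, had the lowest mean of the 10 genes in every group. Its levels were 3.97, 3.07 and 2.81 FPKM in untreated, 2.77, 2.42 and 4.50 in IgE and 4.37, 5.37 and 4.51 in antigen libraries. The antigen values overlapped the IgE values only through IgE replicate 3, and they did not overlap the untreated values. The antigen-to-IgE difference of 0.47 (SE 0.179, ratio of means 1.47) passed the test narrowly (adjusted p = 0.0429, limma), and it failed in 10 of 20 alternatives, with adjusted p from 0.0013 to 0.142. Among them were the fits without untreated replicate 2 or 3, without IgE replicate 1 or 2 and without antigen replicate 1 or 2, where the difference ran from 0.33 without IgE replicate 2 to 0.52 without antigen replicate 1. Against untreated the difference was 0.43 (adjusted p = 0.0591), which passed in 6 alternatives. Nfatc2 is the gene whose call in these 2 comparisons depends most on the setting.

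Nfatc3, which shares the calcineurin docking motifs of Nfatc1 and Nfatc2, was at 13.9, 13.4 and 13.4 FPKM in untreated, 11.7, 11.0 and 14.9 in IgE and 13.4, 14.1 and 15.0 in antigen libraries. The antigen group overlapped both other groups. Its antigen-to-IgE difference of 0.18 did not pass (95% interval -0.05 to 0.40, adjusted p = 0.14), and without IgE replicate 3 it was 0.30 (adjusted p = 0.00136, where the alternatives ranged from 0.00136 to 0.409). The fourth calcineurin-dependent factor gene, Nfatc4, stayed at or under 0.0836 FPKM in all libraries and was not tested.

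IgE replicate 3 read high for all 4 NFAT genes. Relative to the mean of the other 2 IgE libraries its log2(FPKM + 1) was higher by 0.56 for Nfatc1, 0.62 for Nfatc2, 0.37 for Nfatc3 and 0.31 for Nfat5. Deviations at least this high were found in that library for 0.927%, 0.661%, 3.65% and 5.82% of the tested genes. The other 6 genes deviated by -0.15 to 0.05, so the shift was not common to the calcineurin genes. Over all genes this library's deviation moved with transcript length, with medians of -0.08 up to 2000 bases and 0.09 above 7000 bases, and the part of length in the NFAT values was not tested gene by gene. Without IgE replicate 3, the IgE group was below the untreated group for Nfatc1 by a log2 difference of -0.24 (adjusted p = 0.0309), for Nfatc3 by -0.24 (adjusted p = 0.0114) and for Nfat5 by -0.38 (adjusted p = 0.0292), while Nfatc2, at -0.25, did not pass (adjusted p = 0.17). The IgE effect on the NFAT genes therefore depends on 1 library.

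**Figure D2:**
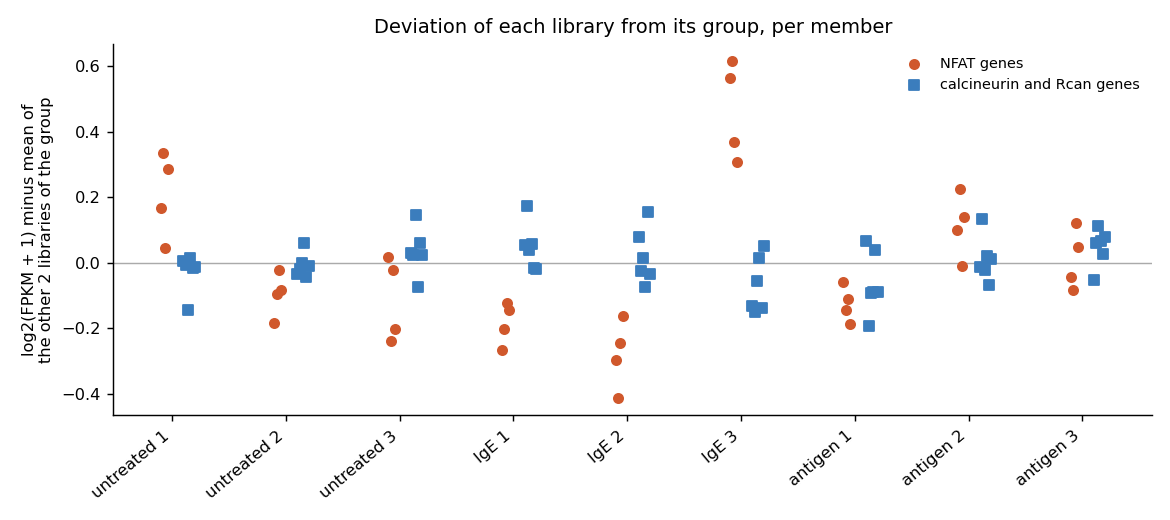
For each of the 9 libraries on the horizontal axis, the vertical axis gives each gene's log2(FPKM + 1) minus the mean of the other 2 libraries of its group; circles are the 4 NFAT genes and squares the 6 calcineurin and Rcan genes. In IgE replicate 3 the NFAT genes lie at 0.31 to 0.62 and the others at -0.15 to 0.05.

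FPKM is scaled to length, so levels of different genes were set side by side here and in the order of levels below. This holds only as far as the transcript models behind the values, which the sources do not name, are right. The makeup of the NFAT transcripts differed between the groups. Nfatc1 made up 40.1% ± 1.51 (SD, n = 3) of the summed FPKM of the 4 NFAT genes in untreated, 41.8% ± 1.45 in IgE and 66.3% ± 1.07 in antigen libraries. Nfatc3 went the other way in share, from 38.4% and 38.2% to 16.0%, though its own level did not pass the test. Nfat5 held 12.2%, 10.4% and 12.4%, since it rose along with the sum. That sum was 35.4 ± 2.54 FPKM in untreated, 33.0 ± 7.30 in IgE and 88.7 ± 3.94 in antigen libraries. The antigen libraries were thus dominated by Nfatc1 transcripts, where Nfatc1 and Nfatc3 had been about even.

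**Figure D3:**
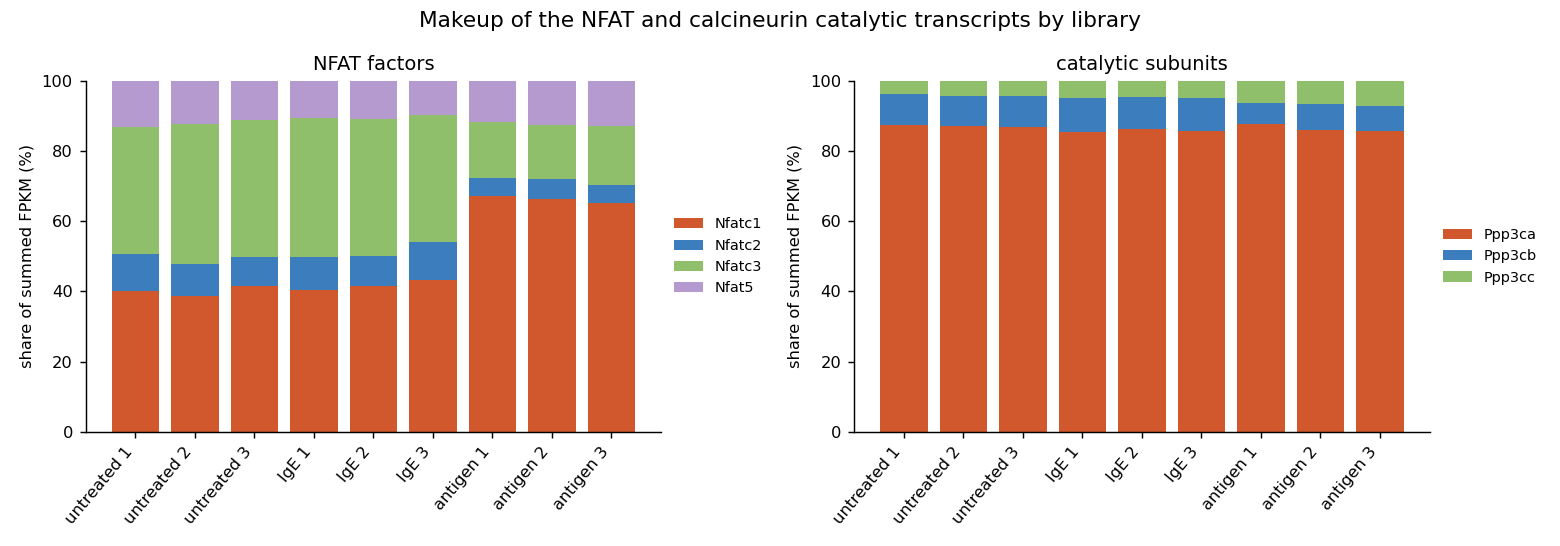
Share of summed FPKM in percent on the vertical axis, 1 stacked bar per library, for the 4 NFAT genes (left) and the 3 calcineurin catalytic genes (right). Nfatc1 takes 65.2% to 67.3% of the NFAT sum in the antigen libraries against 38.6% to 43.3% in the other 6, while Ppp3ca holds 85.3% to 87.7% of the catalytic sum in all 9.

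Among the catalytic subunits, Ppp3ca, the alpha form, was the most abundant of the 10 genes in every group. It was at 104, 102 and 105 FPKM in untreated, 98.3, 99.4 and 90.2 in IgE and 106, 103 and 101 in antigen libraries. The IgE values lay below both other groups without overlap, and against untreated it alone of the 10 genes was apart, where 43.2% of the tested genes were, 21.3% above and 21.8% below. The untreated and antigen values overlapped. Neither difference passed limma's test. Antigen versus IgE was 0.10 (adjusted p = 0.0547) and turned to -0.16 (adjusted p = 0.00189) under quantile normalization. IgE versus untreated was -0.12 (adjusted p = 0.0775). The direction of the antigen difference of Ppp3ca is therefore not settled by these data.

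Ppp3cb, the beta catalytic form, was the member of the 10 that fell with antigen. Its levels were 10.4, 10.3 and 10.5 FPKM in untreated, 11.4, 10.3 and 9.71 in IgE and 7.28, 8.63 and 8.31 in antigen libraries. The antigen values lay below all 6 others. The antigen-to-IgE ratio of means was 0.770, with a difference of -0.34 (SE 0.0703, adjusted p = 0.00238, limma) that passed in all 21 alternatives. IgE versus untreated was 0.01 with a 95% interval of -0.16 to 0.17. The antigen step was below the IgE step by a difference of -0.35 (adjusted p = 0.0393), a call that was lost in 9 of 20 alternatives, among them the fits without each untreated library, IgE replicate 1 or 2, or antigen replicate 1 (adjusted p from 0.0534 to 0.159).

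Ppp3cc, the gamma catalytic form, best known from testis, moved the opposite way. It was at 4.51, 4.89 and 5.31 FPKM in untreated, 5.45, 5.38 and 5.18 in IgE and 7.68, 7.96 and 8.53 in antigen libraries, with the antigen values above all others. Antigen was 1.51-fold above IgE (difference 0.51, SE 0.0588, adjusted p = 7.08e-05, limma), and the difference passed in all 21 alternatives. IgE versus untreated was 0.10 (adjusted p = 0.223), and the steps differed by 0.41 (adjusted p = 0.00909). In the antigen libraries Ppp3cb and Ppp3cc had come to overlapping levels, 8.07 ± 0.707 and 8.06 ± 0.434 FPKM (SD, n = 3), from 10.5 ± 0.870 and 5.34 ± 0.142 in the IgE libraries. Because Ppp3ca outweighs both, its share of the catalytic sum was 87.2%, 85.8% and 86.5% in untreated, IgE and antigen libraries, and the sum itself was 119 ± 1.85, 112 ± 5.82 and 119 ± 1.90 FPKM.

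Ppp3r1, the regulatory subunit calcineurin B, was the second most abundant of the 10 genes in untreated and IgE libraries. It was at 38.0, 38.8 and 36.5 FPKM in untreated, 38.8, 36.4 and 38.0 in IgE and 40.3, 42.4 and 43.3 in antigen libraries, with the antigen values above all others. The antigen-to-IgE ratio of means was 1.11 (difference 0.15, SE 0.0406, adjusted p = 0.00989, limma), but under quantile normalization the difference was 0.01 (adjusted p = 0.834). The summed catalytic FPKM was 3.16 ± 0.150 times that of Ppp3r1 in untreated, 2.96 ± 0.198 in IgE and 2.84 ± 0.153 in antigen libraries (SD, n = 3). The IgE libraries overlapped both other groups in this ratio, while the antigen libraries, at 2.71 to 3.01, lay below the untreated ones, at 3.03 to 3.32. The testis form of the regulatory subunit, Ppp3r2, was listed at 0 in 8 libraries and was at 0.0116 FPKM in the other.

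Rcan1 and Rcan3, which bind and restrain calcineurin, did not pass the test in any comparison. Rcan1 was at 10.7, 10.5 and 11.1 FPKM in untreated, 10.9, 11.8 and 10.2 in IgE and 10.9, 10.4 and 10.9 in antigen libraries. All 3 groups overlapped. Its antigen-to-IgE difference was -0.03 with a 95% interval of -0.15 to 0.09 (adjusted p = 0.649). Rcan3 was at 17.0, 17.0 and 17.3 FPKM in untreated, 16.6, 16.5 and 17.2 in IgE and 15.7, 16.5 and 17.1 in antigen libraries, again with overlap, and its interval was -0.11 to 0.06 (adjusted p = 0.546). Both intervals exclude a 2-fold change at the gene level, and Rcan2 was at or under 0.0106 FPKM throughout.

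Rcan1 has alternative starts, and transcripts from the downstream start are known to rise with calcineurin and NFAT activity in muscle and endothelium. The deposited value is 1 number per gene, so the starts were not separated here. The windows of 250 bases before both annotated starts, on the minus strand of GRCm38.p6 and from RefSeq, are shown because they differ in GGAAA cores (capitals, either strand). The upstream window lies at chr16:92466170-92466419 and the downstream one at chr16:92400079-92400328.
Rcan1 upstream: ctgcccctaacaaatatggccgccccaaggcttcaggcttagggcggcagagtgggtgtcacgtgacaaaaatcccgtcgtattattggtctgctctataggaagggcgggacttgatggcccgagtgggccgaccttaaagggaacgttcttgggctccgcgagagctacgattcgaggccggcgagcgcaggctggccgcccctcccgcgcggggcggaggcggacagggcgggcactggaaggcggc
Rcan1 downstream: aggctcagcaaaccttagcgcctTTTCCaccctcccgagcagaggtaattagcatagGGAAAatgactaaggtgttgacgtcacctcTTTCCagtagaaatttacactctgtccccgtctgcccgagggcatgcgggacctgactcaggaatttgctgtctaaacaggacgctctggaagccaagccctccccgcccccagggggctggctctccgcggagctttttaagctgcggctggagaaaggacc
The upstream window held 0 matches and the downstream window 3, at 227, 193 and 163 bases before the start, and at least 3 were found in 6.39% of all windows of this length. A window without the letters says nothing about NFAT elsewhere in the gene. Among the other matched genes, Ppp3cb and the first Nfatc2 window also held 3, Rcan3, the second Nfatc2 window and the first Nfatc3 window 1, and Ppp3r1 and the second Nfatc3 window 0.

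**Figure D4:**
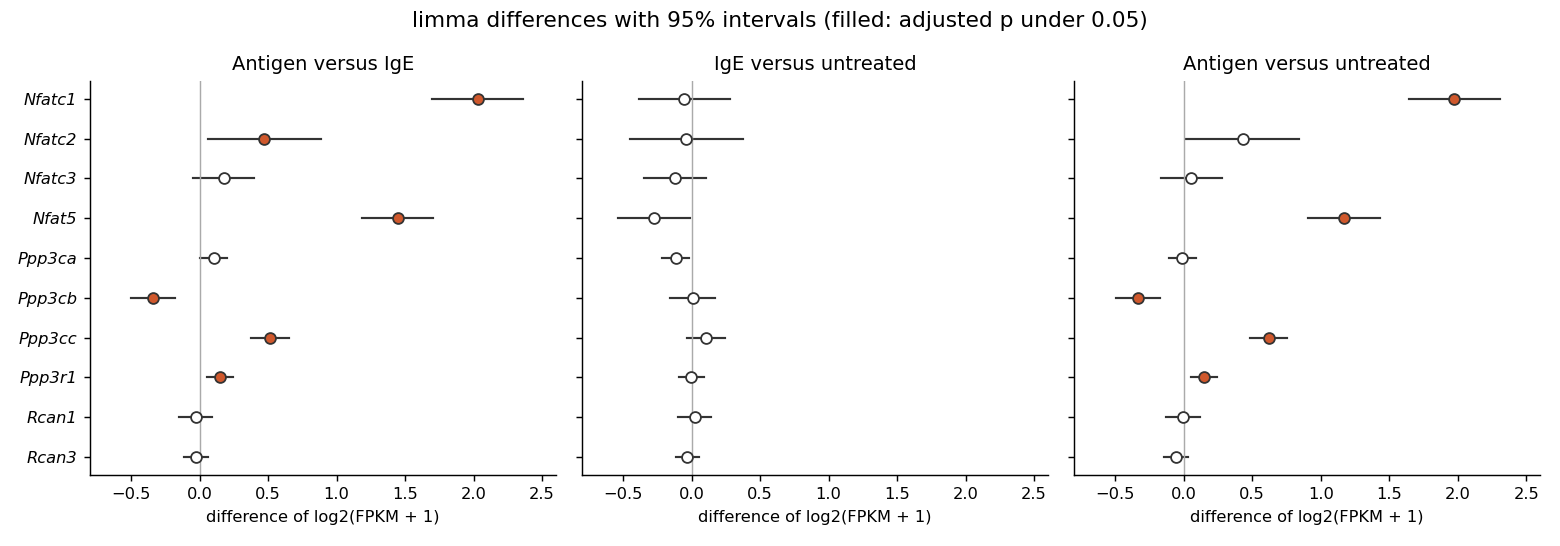
Differences of log2(FPKM + 1) with 95% intervals from limma on the horizontal axis for the 10 genes, in antigen versus IgE (left), IgE versus untreated (middle) and antigen versus untreated (right); filled points passed an adjusted p of 0.05. With antigen, Nfatc1 and Nfat5 stand at 2.03 and 1.45 against IgE, Ppp3cb lies below 0, and no point is filled for IgE versus untreated.

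The comparison of antigen with untreated shares its antigen libraries with the one above, so it is given as values and not as separate support. It had 4 of the 10 genes higher and 1 lower, where 71.7% of the tested genes passed in either direction, 37.2% higher and 34.4% lower. Without overlap, 5 lay above and 1 below, where 78.3% of the tested genes were apart, 40.2% above and 38.0% below. Passing with a ratio above 2, as 8.86% of the tested genes did, were again Nfatc1 and Nfat5. Nfatc1 differed by 1.98 (4.13-fold), Nfat5 by 1.17 (2.53-fold), Ppp3cc by 0.62 (1.64-fold) and Ppp3cb by -0.33. Ppp3r1 differed by 0.15 (adjusted p = 0.0102), which became -0.01 (adjusted p = 0.834) under quantile normalization. For the difference between the 2 steps, 4 genes were higher and 1 lower, where 55.8% of the tested genes passed, 28.8% higher and 27.0% lower. These were Nfatc1, Nfat5, Ppp3cc, Ppp3ca and, lower, Ppp3cb, and the Ppp3ca value of 0.22 (adjusted p = 0.0328) was lost in 9 of 20 alternatives, among them quantile normalization (0.01, adjusted p = 0.866) and the fits without untreated replicate 1 or 3, IgE replicate 3, or antigen replicate 1 or 2 (adjusted p from 0.0558 to 0.0724).

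In order of mean level, the untreated libraries ran Ppp3ca, Ppp3r1, Rcan3, Nfatc1, Nfatc3, Rcan1, Ppp3cb, Ppp3cc, Nfat5 and Nfatc2, from 104 to 3.28 FPKM. Neighbours whose libraries overlapped were Nfatc1 with Nfatc3, Rcan1 with Ppp3cb, Ppp3cc with Nfat5 and Nfat5 with Nfatc2. The order was the same in the IgE libraries, from 96.0 to 3.23 FPKM, with overlap from Rcan3 through Ppp3cb and again between Nfat5 and Nfatc2. In the antigen libraries Nfatc1 moved up to the second place, above Ppp3r1, and Nfat5 to the sixth, where it overlapped Rcan1. The genes most like Nfatc1 over the 9 libraries, by Pearson correlation of log2(FPKM + 1), were Irf2bpl (r = 0.9993), Bcr (r = 0.9987) and Lamc1 (r = 0.9986). For Nfat5 they were Smg1 (r = 0.9977), Cpeb4 (r = 0.9961) and Tnks (r = 0.9957). These correlations are a description over 3 groups of 3 libraries, in which any gene that differs in the antigen group alone correlates highly.

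Around calcineurin itself, of 12 tested regulators and anchors 5 were higher and 2 lower with antigen than with IgE, with a median log2 difference of 0.10. This count and those of the lists that follow are to be read against 36.2% higher and 34.9% lower over all tested genes. Fhl2, a LIM protein reported to bind calcineurin in mouse heart, was 7.11-fold higher, at 7.10 ± 0.599 against 0.998 ± 0.126 FPKM (adjusted p = 1.11e-07). Outside the antigen group it reached 1 FPKM in IgE replicate 3 alone, so it was tested through the group where it is high. Akap1, a mitochondrial anchor of kinases and phosphatases, differed by -1.06 (adjusted p = 1.21e-06), from 3.80 ± 0.106 to 1.31 ± 0.0937 FPKM. Under quantile normalization the list had 2 higher and 5 lower, and all tested genes moved the same way, from 3938 higher and 3801 lower to 3309 and 3994.

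NFAT kinases and the genes of its export and nuclear retention were split, with 9 of 18 higher and 4 lower and a median of 0.30. Of all tested genes, 36.2% were higher and 34.9% lower. Mapk14, the stress kinase p38 alpha, was 2.13-fold higher, from 50.9 ± 1.78 to 108 ± 4.39 FPKM (adjusted p = 6.45e-08). Csnk1e, a casein kinase 1, was 2.10-fold higher, from 16.6 ± 0.820 to 34.8 ± 2.18 FPKM (adjusted p = 5.87e-07). Prkcq, protein kinase C theta, went from 16.4 ± 0.667 to 5.36 ± 0.517 FPKM (difference -1.45, adjusted p = 1.80e-07).

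The genes of calcium supply had 10 of 16 higher and 4 lower, with a median of 0.45, where 36.2% of all tested genes were higher and 34.9% lower. Kcnn4, the calcium-activated potassium channel that sustains calcium entry, was 3.58-fold higher, at 240 ± 4.47 against 66.9 ± 1.73 FPKM (adjusted p = 1.57e-09). Stim2, a sensor of stored calcium, was 3.26-fold higher, at 35.1 ± 0.140 against 10.8 ± 0.416 FPKM (adjusted p = 3.03e-09). Atp2b4, a plasma membrane pump that removes calcium, was 4.38-fold higher, at 7.83 ± 0.287 against 1.79 ± 0.362 FPKM (adjusted p = 5.92e-07). The pump gene Atp2b1 was also among the 10 higher, so the list mixes supply and removal and its counts are no measure of supply. The other higher genes were Trpm4 at 1.48, Orai1 at 1.29, Atp2a2 at 1.28, Itpr3 at 0.59, Atp2a3 at 0.30 and Orai2 at 0.12 (log2 differences). The 4 lower genes were Plcg1 and Plcg2, the phospholipases that start calcium release, at -0.18 and -0.41, the IP3 receptor gene Itpr1 at -0.21 and the store sensor gene Stim1 at -0.34 (log2 differences).

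Partners of NFAT on composite sites had 9 of 12 higher and 1 lower, with a median of 1.34. The shares over all tested genes were 36.2% higher and 34.9% lower, here and for the target genes below. Jund was 4.26-fold higher, at 121 ± 3.88 against 28.3 ± 4.12 FPKM, and Cebpb was 4.67-fold higher, at 25.4 ± 3.31 against 5.43 ± 1.40 FPKM (adjusted p = 2.59e-07 and 9.03e-06). Fosb went from 0.111 ± 0.0360 to 11.7 ± 0.0614 FPKM, 106-fold (adjusted p = 3.95e-10). Fosb reached 1 FPKM only in antigen libraries, and Maf, the lower gene, only in the other libraries, so the filter favoured both calls. Gata2, a factor of mast cell identity on this list, was also high in IgE replicate 3, at 263 FPKM against 163 and 162 in the other IgE libraries. Of 24 reported NFAT target genes, 20 were tested, of which 18 were higher and 1 lower, with a median of 2.30. Il2, Il3, Il5 and Fasl stayed at or under 0.205 FPKM and were not tested. Csf2, Egr2, Egr3, Nr4a1, Nr4a3 and Ptgs2 reached 1 FPKM only in antigen libraries. The filter kept them through the group where they are high, so the count and the median are in part set by it. The chemokine gene Ccl1 went from 3.58 ± 0.975 to 1175 ± 75.2 FPKM, the chemokine gene Ccl4 from 7.47 ± 0.685 to 496 ± 20.0, and the zinc finger factor gene Egr2 from 0.144 ± 0.0266 to 52.0 ± 1.83. These targets were collected from other cells and stimuli and also answer to other factors, so their counts are no measure of NFAT.

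The genes listed as other calcineurin substrates had 3 of 9 higher and 2 lower, with a median of 0.21. Whether calcineurin acts on each of them, Tfam included, was not tested. Over all tested genes 36.2% were higher and 34.9% lower, which also holds for the tonicity genes below. Bad, a cell death factor that calcineurin dephosphorylates, went from 34.7 ± 1.32 to 20.6 ± 2.36 FPKM (difference -0.73, adjusted p = 5.47e-05). The CREB coactivator genes Crtc2 and Crtc3 were 1.59-fold and 1.29-fold higher (adjusted p = 0.00665 and 0.0086). Elk1 and Tfe3, which are X-linked, were listed at 0 in antigen replicate 3 like the rest of that chromosome, against 3.70 and 4.07 FPKM for Elk1 and 23.7 and 24.4 FPKM for Tfe3 in the other antigen libraries, and without that library the list had 4 higher and 2 lower. Rnf128, X-linked and on the target list, was likewise at 0 in that library and at 189 and 199 FPKM in the other antigen libraries. Without antigen replicate 3, the target list had 18 higher and 2 lower. Of the 8 tested genes on the tonicity list, 6 were higher and 1 lower, with a median of 0.23. Under quantile normalization the median was 0.02, with 3 higher and 1 lower. Whether Nfat5 drives these genes was not tested. Slc5a3, the myo-inositol transporter, was 12.5-fold higher, at 12.1 ± 0.940 against 0.969 ± 0.108 FPKM (adjusted p = 6.42e-09), though it lies within the Mrps6 locus and reads of both could be split either way. Hspa4l, an Hsp110 family chaperone, was 3.34-fold higher, at 67.5 ± 1.02 against 20.2 ± 1.08 FPKM (adjusted p = 6.34e-09). Nup88, a nuclear pore protein gene, differed by -0.37 (adjusted p = 8.48e-05), from 41.7 ± 1.01 to 32.1 ± 1.48 FPKM.

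**Figure D5:**
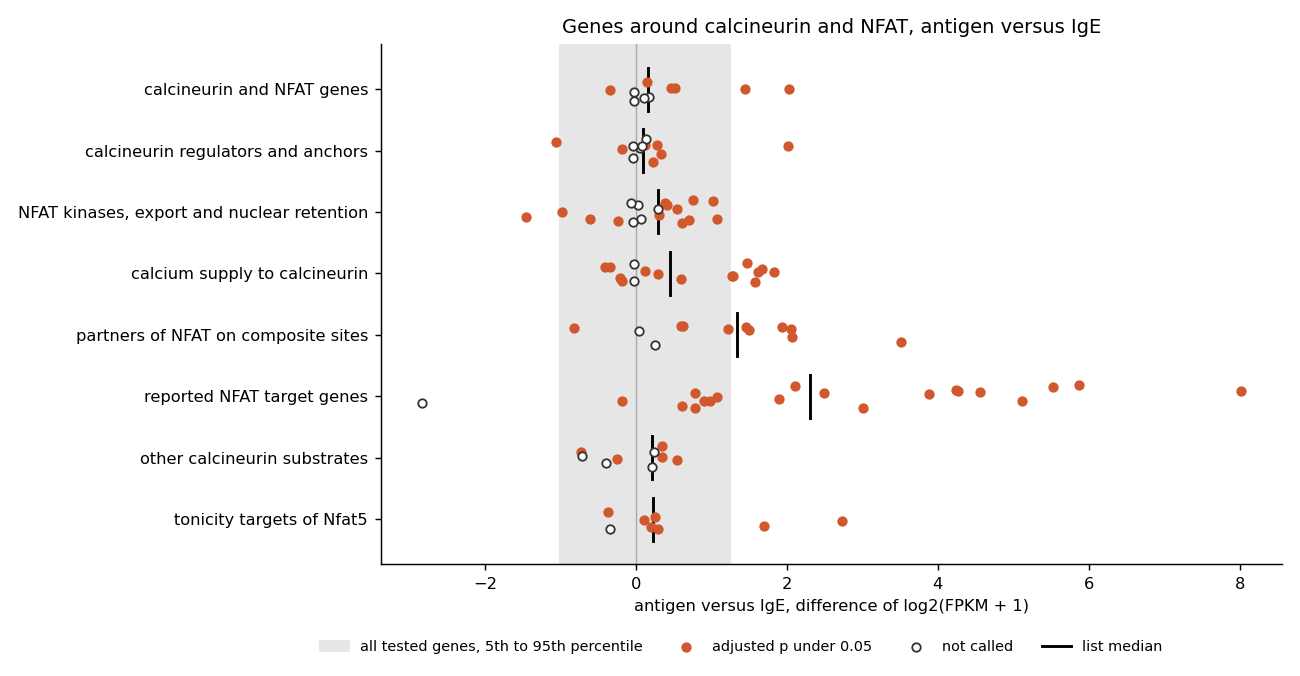
Antigen-to-IgE differences of log2(FPKM + 1) on the horizontal axis for every tested gene of 8 lists, 1 row a list; filled points passed an adjusted p of 0.05, the vertical stroke is the list median and the grey band spans the 5th to 95th percentile of all tested genes (-1.004 to 1.25). The medians run from 0.10 for the regulators to 2.30 for the reported NFAT targets, and Nfatc1 and Nfat5 are the points of the top row to the right of the band.

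With IgE and no antigen, calls were fewer over all tested genes, 27.5% against 71.1% with antigen, and the counts of the lists are to be read against 14.5% higher and 13.1% lower. Regulators and anchors had 4 of 12 higher and 0 lower (0 lower also at an unadjusted p under 0.05, limma). Among these, Ppia, the cyclophilin A gene through which cyclosporin blocks calcineurin, was at 1021 against 790.2 FPKM (difference 0.37, adjusted p = 0.0155) and Calm3 at 275 against 240 FPKM (0.19, adjusted p = 0.012). Ppia has many processed copies in the genome, which makes its level uncertain. Kinases and export had 3 higher and 3 lower of 18, with Prkcq at -0.34, the scaffold gene Homer3 at 0.26 and the exportin gene Xpo1 at 0.24. Calcium supply had 3 higher and 5 lower of 16, with Atp2b4 at 0.38 and, lower, the IP3 receptor gene Itpr2 at -0.29 and the calcium sensor gene Stim1 at -0.20. Leaving out 1 library ended the calls of Stim1 and Xpo1 (untreated replicate 1 or 3, or IgE replicate 1 or 2, adjusted p up to 0.0926 and 0.0909), of Ppia (untreated replicate 1, or IgE replicate 1 or 2, adjusted p up to 0.0557) and of Atp2b4 (untreated replicate 3, adjusted p = 0.0539), and quantile normalization ended that of Calm3 (adjusted p = 0.178).

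In the remaining lists, NFAT partners had 2 of 12 lower, Batf at -0.22 and Mef2a at -0.12, and 5 lower without IgE replicate 3. Reported targets had 2 higher and 3 lower of 20, with the cytokine gene Tnf 2.40-fold higher (1.87 to 4.49 FPKM), the chemokine gene Ccl2 at 0.37 and the cytokine gene Il13 at -0.59. Of the other substrates 1 of 9 was lower, Crtc1 at -0.49. Tonicity genes had 1 higher and 1 lower of 8, the amino acid transporter gene Slc38a2 at 0.23 and the betaine transporter gene Slc6a12 at -0.34. Several of these calls were near the threshold. Mef2a lost its call in 13 of 21 alternatives, among them the fits without any 1 library other than IgE replicate 3 (adjusted p up to 0.112), and Crtc1 in 8 of 20, among them those without any 1 untreated library, IgE replicate 1 or 2, or antigen replicate 1 or 2 (adjusted p up to 0.113). Batf lost it without untreated replicate 2 or 3 (adjusted p up to 0.102) and Ccl2 without untreated replicate 1 (adjusted p = 0.0538). All values in this paragraph and the one before are log2 differences unless given as FPKM or fold, and each named gene passed limma's adjusted test with all libraries in the fit.

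Set against untreated, where 37.2% of all tested genes were higher and 34.4% lower, the antigen libraries gave counts of 6 higher and 1 lower of 12 regulators, 10 and 3 of 18 kinases and export genes, 9 and 5 of 16 calcium supply genes, 9 and 1 of 12 partners, 18 and 1 of 20 targets, 2 and 2 of 9 other substrates and 5 and 2 of 8 tonicity genes. The regulator, partner and target counts again hold genes that passed the filter only through the antigen libraries. Prkcq, which had fallen with IgE, was at 5.36 against 20.9 FPKM (difference -1.79). Atp2b4 was 6.91-fold and the pump gene Atp2b1 3.80-fold higher, at 17.3 against 4.55 FPKM for the latter. Tfam, the mitochondrial DNA packaging factor on the substrate list, was 1.36-fold higher (adjusted p = 0.00029). Slc38a2 was 1.45-fold higher (adjusted p = 2.17e-05). Crtc2 was 1.40-fold higher (adjusted p = 0.0305), a call lost without untreated replicate 2 or 3 or antigen replicate 1 or 2 (adjusted p up to 0.101).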

How the data were processed

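RNA was sequenced from 9 libraries of mouse bone marrow-derived mast cells, 3 in each of 3 groups taken from the treatment labels. The authors deposited 1 table of FPKM values for 23951 gene symbols. Alignment used TopHat2 2.0.12 with Bowtie 0.12.7 and the mm9 genome, per the submitters' processing notes. The sources used here do not name the program, annotation or strand setting behind the FPKM values. FPKM carries no read totals, so depth (20.6 to 39.2 M reads) was read off the spacing of low values in 2966 genes with a single transcript, where 58.4% to 70.8% of values fell within 0.1 of a whole read against 20% by chance. Because the steps depend on transcript length, no count test was run.

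The 10890 genes that reached 1 FPKM in 3 or more libraries entered 1 limma fit (limma 3.58.1, R 4.3.3) of log2(FPKM + 1) on the 3 groups, over all 9 libraries, with an intensity trend in the prior and no covariate. Two-sided p-values were adjusted by Benjamini-Hochberg over all tested genes within a comparison, and an adjusted p under 0.05 counted as passing. Log2 differences on this scale understate the change of low genes; folds are ratios of mean FPKM. The fit was tested on simulated data with 200 genes changed. Errors after ± are SD over 3 libraries.

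The 10 genes and all lists were chosen with earlier results of these data known. Named from each list and comparison were up to 3 genes that passed with groups not overlapping, by size of difference; a gene of the regulator list that met this rule is not reported here. Gata2, Maf, Elk1, Tfe3, Rnf128, the markers and the untested relatives were named after their values were seen. So were the calcium supply genes outside this rule, the 4 lower ones among them, and the targets given for the filter. Deviations of same-numbered libraries correlated at -0.153 to 0.35. Between untreated and IgE these values were 0.115, 0.35 and 0.0361, against -0.349 to 0.244 for unlike numbers. The numbers were not treated as pairs in the main fit, and a replicate block was run as an alternative. In all, 21 alternative settings were run: pseudocounts of 0.1 and 0.5, other filters (none, 5 FPKM), 3 scalings, no trend, only the groups compared, a replicate block, each library left out, IgE and antigen replicates 3 left out together, and removal of the trend over transcript length, the last added after seeing the data. Transcript lengths came from GENCODE M21 and promoter sequences from RefSeq (GRCm38.p6), matched by symbol. The promoter search for the 10 genes left out chromosome 18.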

Additional observations from a re-analysis of the deposited data

How the results depend on the processing

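Of 826 values of the 10 genes over the alternatives, 771 kept their side of the threshold (738 with the same sign and 33, none of them called, with the other), 29 lost the call, 24 gained it and 2 reversed. The calls of Nfatc1, Nfat5, Ppp3cb and Ppp3cc in antigen versus IgE held in all 21 settings. Under quantile normalization Ppp3ca in antigen versus IgE became -0.16 and Ppp3r1 in antigen versus untreated -0.0122, and the count of the 10 genes called lower became 2 for antigen versus IgE, 3 for antigen versus untreated and 1 for IgE versus untreated; the cause was not tested. Trimmed mean scaling also gave 1 lower for IgE versus untreated. Leaving out IgE replicate 3 with antigen replicate 3 gave 3 lower there, and leaving out 1 library at a time gave 0 to 3. For the difference between the steps, the 1 gene called lower became 0 without a filter, under quantile normalization and with the replicate block, and was 0 to 1 with 1 library left out. With the replicate block, Nfatc2 in antigen versus IgE had an adjusted p of 0.0769. Over all tested genes, IgE versus untreated called 1015 to 1942 higher and 880 to 1945 lower with 1 library left out, and 2162 and 2054 without IgE and antigen replicates 3, against 1575 and 1424 with all. Depth limits low genes with short transcripts, such as Ppp3cc, more than those with long ones, such as Nfat5.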
